A study of Homo sapiens with 66 samples.

Results

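The effect of NCP22 on the transcriptome of AMO1 cells after 6 h was examined in 6 RNAseq libraries, 3 treated with NCP22 and 3 with the solvent DMSO, of the 66 libraries of the series. They were taken by cell line, compound and time from the sample labels. AMO1 is an established human multiple myeloma (MM) line, and MM is a cancer of plasma cells. NCP22 inhibits the prolyl-tRNA synthetase (ProRS) activity of GluProRS, the enzyme that charges tRNA with glutamate and proline, and was the starting point for the related inhibitor NCP26. The series as a whole compares such inhibitors and the proteasome inhibitor carfilzomib (CFZ) with DMSO, at 6 h or 24 h, in AMO1 and in L363-CFZr, a CFZ-resistant subline of the myeloma line L363. The NCP22 group was wild-type AMO1 cells exposed to 1 µM NCP22 for 6 h, and the DMSO group was the same cells exposed to solvent for 6 h. The labels name no other agent in either group, and pellets of both were frozen overnight before RNA was extracted. Each group is 1 line with 3 replicates, and the labels give replicate numbers only. The methods of the study speak of biological triplicates in general and of triplicates for RNAseq, without saying how these cultures were kept apart, and p-values measure the spread between these samples.

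When a tRNA synthetase is blocked, uncharged tRNA builds up and can activate the kinase GCN2. GCN2 phosphorylates eIF2α, which lowers protein synthesis in general while translation of the transcription factor ATF4 increases. ATF4 raises genes of amino acid synthesis, amino acid import and tRNA charging, and this programme is called the integrated stress response (ISR). Myeloma cells, which make large amounts of secreted protein, depend on tight control of protein synthesis and of the endoplasmic reticulum (ER).

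ATF4 binds composite C/EBP-ATF elements in the promoters of its targets. Because most ATF4 targets rose with NCP22, windows of 250 bases before to 50 bases after the RefSeq start site (GRCh38.p14) were searched on both strands for TGATGNAA, one spelling of the core of this element. It was in 1270 of 35116 windows (3.62%) and in 1217 of 27305 genes (4.46%). Of the ISR genes tested below, 31 had a window and 7 held the motif, ATF3 among them, and of the 21 with a window that rose with NCP22, 5 held it. Those were ASNS, CEBPG, SLC1A5, SLC3A2 and SLC7A1. The windows of 3 of them, in which the motif reads along the gene strand and precedes the start site, are shown 5′ to 3′ with the motif in capitals, as places where ATF4 could bind. A match is a description of letters and no evidence of binding.
ASNS, minus strand, chr7:97872359-97872658: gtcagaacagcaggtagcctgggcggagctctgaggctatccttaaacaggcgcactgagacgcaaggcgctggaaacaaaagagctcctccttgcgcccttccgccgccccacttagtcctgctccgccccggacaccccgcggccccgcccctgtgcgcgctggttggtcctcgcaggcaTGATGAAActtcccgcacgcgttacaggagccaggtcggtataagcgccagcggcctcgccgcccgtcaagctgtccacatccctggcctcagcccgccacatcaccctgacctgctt
CEBPG, plus strand, chr19:33373863-33374162: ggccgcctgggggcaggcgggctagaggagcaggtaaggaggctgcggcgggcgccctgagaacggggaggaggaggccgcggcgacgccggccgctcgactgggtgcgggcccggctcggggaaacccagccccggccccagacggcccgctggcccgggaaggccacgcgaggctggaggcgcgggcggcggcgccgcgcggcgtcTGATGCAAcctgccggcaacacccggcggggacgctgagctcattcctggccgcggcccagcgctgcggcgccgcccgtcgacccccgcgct
SLC1A5, minus strand, chr19:46784765-46785064: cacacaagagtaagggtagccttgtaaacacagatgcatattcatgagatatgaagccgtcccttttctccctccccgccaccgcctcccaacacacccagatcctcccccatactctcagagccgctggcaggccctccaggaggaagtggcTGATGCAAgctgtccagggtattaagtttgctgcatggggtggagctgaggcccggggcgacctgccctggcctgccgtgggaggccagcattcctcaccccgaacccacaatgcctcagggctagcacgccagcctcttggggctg
In the windows shown the motif starts 68 bases before the start site in ASNS, 42 before it in CEBPG and 97 before it in SLC1A5. ASNS and CEBPG had 2 windows each and SLC1A5 had 3, and in each gene 1 window held the motif.

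Counts of 20167 genes were deposited for each library. Total counts were 2913987 to 3183765 with DMSO and 3766018 to 3905701 with NCP22, so every NCP22 library was deeper than every DMSO library. Replicates correlated at 0.980 to 0.987 on the log2 scale of counts relative to the library total (CPM), none were identical, and mitochondrially encoded transcripts took 4.22% to 4.89% of the counts. All 10 plasma cell markers checked were detected, with a summed level of 9899 to 10230 CPM with DMSO and 8933 to 9487 with NCP22. The summed markers of B cells, T cells, myeloid, erythroid and stromal cells stood at no more than 4.0 CPM in any library. Markers of the line were thus present and those of other cells were at or near 0. Below, CPM are scaled by edgeR's TMM factors, fold changes are NCP22 against DMSO on the log2 scale, and a gene is called higher or lower at a Benjamini-Hochberg adjusted p under 0.05 from edgeR's quasi-likelihood test.

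Many genes differed by a small amount between the NCP22 and DMSO libraries. Of 10693 genes tested, 1443 (13.5%) were called, with 793 higher (7.42%) and 650 lower (6.08%), and the median absolute log2 fold change of the called genes was 0.39. At least 2-fold changes were found in 38 higher and 9 lower genes, and in 11 higher and 0 lower genes with DESeq2's Wald test. Groups did not overlap in 3348 genes (31.3%). The count of calls depended on single libraries: leaving out DMSO replicate 1, 2 or 3 gave 643, 522 or 2291 calls, and leaving out NCP22 replicate 1 or 3 gave 842 or 571. In every one of the 6 fits that left out a library, 373 genes were called.

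Genes with GC-rich transcripts had lower fold changes than genes with GC-poor ones. Over 10537 genes with a GC value, Pearson's correlation was −0.51 and Spearman's −0.605, as a description across genes that share the same libraries. The slope was −0.17 log2 units per 10 percentage points of GC. In the tenth of genes with the lowest GC content (30.7% to 38.1%), the median log2 fold change was 0.27, with 267 genes higher and 2 lower. In the tenth with the highest GC content (61.7% to 74.8%), it was −0.21, with 5 higher and 166 lower. Higher genes therefore had GC-poor and long transcripts, with a median GC content of 39.5% and a median length of 5635 bases, and lower genes GC-rich and short ones, with 58.3% and 2323 bases, against 47.95% and 3364 bases for all genes tested.

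Single libraries differed in this trend too. The slope of a library's log2 CPM on GC content, per 10 percentage points and relative to the mean of the 6 libraries, was 0.147, 0.105 and −0.001 in the DMSO replicates and −0.085, −0.048 and −0.118 in the NCP22 replicates. DMSO replicate 3 lay closest to the NCP22 libraries, and the groups did not overlap. The group means differed by −0.167 (pooled SD 0.0592, exact two-sided permutation test p = 0.1, the smallest that 3 against 3 libraries allow). Relative to the mean of all 18 AMO1 libraries of 6 h, the slopes were 0.190, 0.151 and 0.0485 with DMSO, 0.003 to 0.011 with halofuginol, −0.068 to −0.002 with NCP22, −0.130 to −0.040 with NCP26 and −0.153 to −0.041 with halofuginone (HFG). The DMSO libraries thus stood at the upper end of the 6 groups, together with the CFZ libraries at 0.051 to 0.091. Treatment, depth and the GC slope went together in these 6 libraries, and whether the trend arose in the cells or in the libraries was not tested.

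**Figure D1:**
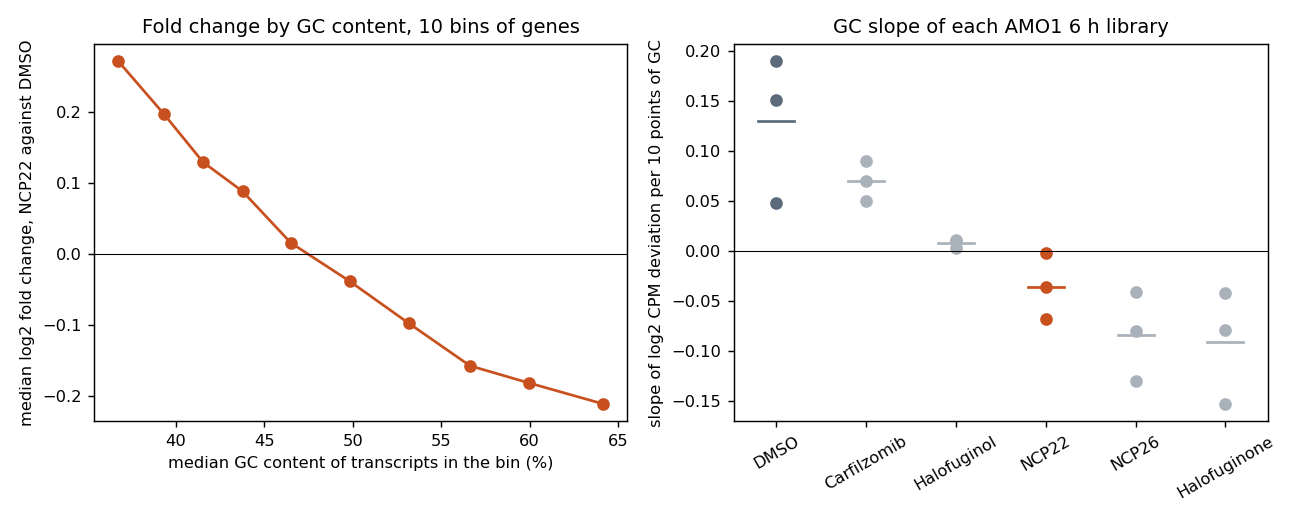
Left, median log2 fold change of NCP22 against DMSO in 10 bins of genes by the GC content of their transcripts, from 0.27 in the lowest bin to −0.21 in the highest. Right, slope of each AMO1 6 h library's log2 CPM deviation per 10 percentage points of GC (points are libraries, bars are group means), with all 3 DMSO libraries above all 3 NCP22 libraries.

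An offset that removed each library's smooth trend on GC content brought the correlation to −0.012 and the calls to 595 (5.56%), of which 305 were higher (2.85%) and 290 lower (2.71%). Of the calls without the offset 421 remained, 29.2% of those calls and 70.8% of the calls with the offset. With the offset, the median GC content of higher and lower genes was 46.3% and 46.2%. The median length was 4902 bases for higher and 2515 for lower genes, so a difference in length remained. Genes called without the offset, with it and in every fit that left out a library numbered 270. Counts of called genes in the groups below are to be read against 13.5% of all genes without the offset and 5.56% with it.

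The ISR genes rose. Of 42 genes in the list of ISR genes and ATF4 targets, 38 passed the filter on low counts, and 26 of these (68.4%, against 7.42% of all genes) were called higher and 12 did not pass the test. The median log2 fold change was 0.38, against −0.01 over all genes. With the GC offset 26 were again called higher (median 0.39), 23 of them the same genes, although the median GC content of the list was 55.0%, on the side where genes in general were lower. Leaving out single libraries gave 21 to 24 higher members, and 19 were called in all 6 of these fits. VLDLR, FGF21, NUPR1 and JDP2 were too low to be tested.

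Among enzymes of amino acid synthesis, ASNS, which makes asparagine (chromosome 7, 97851677 to 97872542 of GRCh38), stood at 129, 128 and 129 CPM in the DMSO replicates and at 264.6, 256.0 and 258.3 with NCP22. The groups were far apart and each was tight. It rose 2.02-fold (log2 fold change 1.01, SE 0.07, adjusted p = 7.4e-10). PSAT1, the aminotransferase of serine synthesis (chromosome 9, 78297125 to 78330093), was at 101, 104 and 115 CPM against 258, 234 and 236, a log2 fold change of 1.19 (SE 0.08, adjusted p = 2.8e-10). Its NCP22 libraries all lay far above its DMSO libraries. CTH, an enzyme of cysteine synthesis, rose by 1.09 and PSPH, the phosphatase that completes serine synthesis, by 0.78. The mitochondrial folate enzymes ALDH1L2 (0.87) and MTHFD2 (0.52) were higher as well. PHGDH, the first enzyme of serine synthesis, did not pass the test (0.10, adjusted p = 0.52), and its groups overlapped.

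Amino acid transporters were among the ISR genes with the largest fold changes. SLC7A11, the cystine importer, was at 10.2, 7.41 and 11.7 CPM with DMSO and at 30.6, 29.5 and 36.1 with NCP22, and rose by 1.72 (SE 0.17, adjusted p = 6.0e-07). SLC6A9, a glycine transporter, was at 19.7, 17.5 and 12.4 CPM against 45.6, 47.9 and 38.4, and rose by 1.40 (SE 0.15, adjusted p = 1.9e-06). In both genes the lowest treated library was well above the highest control. Of the 14 transporters tested in a list of their own, which holds these ISR members too, 9 rose (64.3%) and 5 did not pass the test (median 0.33, and 8 rose with the offset, median 0.38). SLC38A1, a glutamine carrier outside the ISR list, rose by 0.53, and SLC7A5, the large neutral amino acid transporter, by 0.38. SLC3A2, which pairs with SLC7A5 and SLC7A11, reached the threshold by a narrow margin (0.22, adjusted p = 0.042) and was called in 1 of the 6 fits that left out a library.

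Regulators of the response rose in part. TRIB3, a pseudokinase that binds ATF4, was at 110, 96.7 and 112 CPM with DMSO and at 202, 200 and 190 with NCP22, and rose by 0.89 (SE 0.08, adjusted p = 6.0e-08). It has a GC-rich transcript (61.5%), and with the GC offset the log2 fold change was 1.08. CEBPB, a partner of ATF4, rose by 0.69 (adjusted p = 0.00098) and CEBPG by 0.39, the latter not called with the offset (0.25, adjusted p = 0.10). DDIT3, the transcription factor CHOP, was at 77.2, 75.5 and 72.0 CPM against 96.2, 91.6 and 86.8. These groups did not overlap, and the rise of 0.29 (SE 0.09, adjusted p = 0.030) was called in 1 of the 6 fits that left out a library. PPP1R15A, the GADD34 subunit that dephosphorylates eIF2α, rose by 0.32 (adjusted p = 0.018).

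The mRNA of ATF4 itself stood at 488, 490 and 459 CPM with DMSO and at 566, 542 and 512 with NCP22. The groups did not overlap, but the log2 fold change of 0.17 (SE 0.06) did not pass the test (adjusted p = 0.066), and with the GC offset it did (0.26, adjusted p = 0.0029). SESN2, a sestrin that restrains mTORC1, behaved in the same way (0.16, adjusted p = 0.22, and 0.33, adjusted p = 0.0054 with the offset). ATF3, a stress-induced factor, and CHAC1, which degrades glutathione, overlapped between groups, with log2 fold changes of 0.34 (adjusted p = 0.23) and −0.38 (adjusted p = 0.24). INHBE, an activin subunit that ATF4 induces, was at 33.7, 30.7 and 34.3 CPM against 57.3, 44.7 and 61.4, and rose by 0.73 (SE 0.12, adjusted p = 0.00064). CCPG1, a receptor for autophagy of the ER, was at 154, 168 and 189 CPM against 407, 362 and 387 and rose by 1.18 (SE 0.08, adjusted p = 2.7e-10). In INHBE replicate 2 was the lowest in both groups, and in CCPG1 the lowest treated library was far above the highest control. Reads of some of these genes could be split with near-identical transcripts, since 48.6% of the 31-mers of ASNS, 43.4% of CCPG1, 28.9% of DDIT3, 26.4% of ATF4, 16.9% of INHBE and 15.3% of PSAT1 occur in other genes, against 0% in TRIB3.

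**Figure D2:**
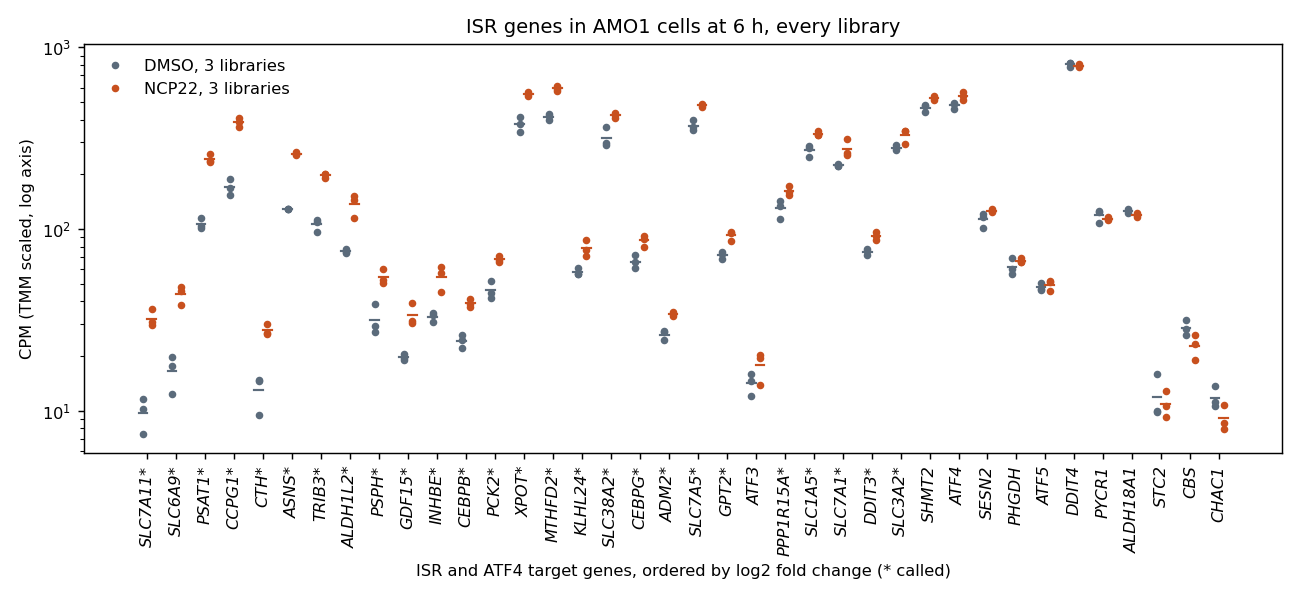
CPM (TMM scaled, log axis) of the 38 tested ISR genes in each of the 3 DMSO and 3 NCP22 libraries of AMO1 cells at 6 h, ordered by log2 fold change, with bars at group means and asterisks on the 26 called genes. In 29 genes, SLC7A11 (1.72) first, every NCP22 library lies above every DMSO library, and in 1 gene every NCP22 library lies below. Over all genes tested, groups did not overlap in 31.3%. The groups overlap in the other ISR genes, among them CHAC1 at the end of the order (−0.38).

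The enzymes that charge tRNAs rose in part. Of 23 cytosolic aminoacyl-tRNA synthetases, 12 were higher and 2 lower (60.9% called, median 0.22), and 9 and 1 with the GC offset (median 0.12). GARS1, the glycine enzyme, was at 378, 373 and 368 CPM with DMSO and at 578, 547 and 545 with NCP22 and rose by 0.58 (SE 0.06, adjusted p = 1.1e-06). AARS1, the alanine enzyme, and IARS1, the isoleucine enzyme, both rose by 0.43. EPRS1, which encodes GluProRS, the target of NCP22 (chromosome 1, 219968600 to 220046530), was at 295, 313 and 324 CPM against 391, 380 and 396. Its groups did not overlap, and it rose by 0.32 (SE 0.06, adjusted p = 0.0021, and 0.21 with the offset, adjusted p = 0.017). FARSA, a subunit of the phenylalanine enzyme, fell by 0.48 (adjusted p = 0.00064) and VARS1, the valine enzyme, by 0.25 (adjusted p = 0.017), the latter not with the offset (−0.06, adjusted p = 0.61). Leaving out single libraries gave 6 to 12 higher synthetases.

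Proline synthesis and the eIF2 machinery showed few calls. In the list of proline synthesis and prolyl-tRNA synthetases EPRS1 was the 1 gene called of 11, and ALDH18A1 and PYCR1, enzymes that make proline, had log2 fold changes of −0.08 and −0.07 (adjusted p = 0.55 and 0.62). Of 19 eIF2 kinases and regulators, 2 rose, EIF2S2 (eIF2β) by 0.27 and PPP1R15A, and GCN1, the activator of GCN2, fell by 0.31 (adjusted p = 0.0043). GCN1 was not called with the GC offset (−0.17, adjusted p = 0.084).

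Heat shock genes fell. Of 21 tested, 11 were lower and 1 higher (57.1% called, median −0.28), with the same numbers under the GC offset (median −0.26). The median GC content of the list was 45.3%. In the tenth of genes from 45.1% to 47.95% GC the median log2 fold change was 0.02, so the offset could hardly move the list's median. When single libraries were left out, 9 to 11 were lower. HSPA8, the constitutive HSP70 chaperone (chromosome 11, 123057489 to 123063230), was at 1749, 1768 and 1636 CPM with DMSO and at 1045, 1030 and 1007 with NCP22. The groups were wide apart, and it fell by 0.74 (SE 0.06, adjusted p = 2.5e-09). As given below, the AMO1 DMSO libraries of 24 h stood near the NCP22 level of 6 h for HSPA8, and why was not tested. HSPH1 fell by 0.59, AHSA1 by 0.52, FKBP4 by 0.44, DNAJA1 by 0.43 and HSP90AB1 by 0.28, all of them chaperones or co-chaperones of the cytosol. HSPA9, the mitochondrial HSP70, was the member that rose (0.31, adjusted p = 0.0011). Of the 5210 31-mers of HSPA8, 1616 occur in other genes.

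Genes of sterol synthesis were lower in part, with 8 of 23 lower (34.8%) and 15 not called (median −0.22), and 9 lower with the GC offset (median −0.19). MVD, of the mevalonate pathway, fell by 0.59, HMGCS1 by 0.36 and INSIG1, which restrains the pathway, by 0.31. Of 69 nuclear-encoded respiratory chain subunits, 12 fell (17.4%, median −0.16), NDUFS3 by 0.47, and of 78 cytosolic ribosomal proteins 14 fell (17.9%, median −0.10), RPL28 by 0.39. These calls were all falls, and their shares were above the 6.08% of all genes called lower, although near the 13.5% called in either direction. Leaving out single libraries gave 2 to 25 lower respiratory chain genes and 2 to 31 lower ribosomal protein genes. The GC offset gave 12 and 11 (17.4% and 14.1%, against 2.71% of all genes called lower). With the GC and length offset their medians were −0.08 and −0.02.

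Histone genes rose in part. Of 9 tested replication-dependent histone genes, of 42 in the list, 4 rose (44.4%, median 0.43), and 5 with the offset (median 0.59). Leaving out single libraries gave 2 to 3 higher members, and 1 was called in all 6 of these fits. DESeq2's Wald test called 2. H2BC12 was at 101, 109 and 106 CPM against 161, 150 and 151 and rose by 0.55 (SE 0.08, adjusted p = 0.00011), although 71.0% of its 31-mers occur in other genes. Their poly(A)-negative mRNAs are poorly caught by poly(A) selection. Of 24 genes of ER chaperones and ER-associated degradation, 4 rose and 2 fell (6 of 24 called), and 3 and 2 with the offset. EDEM1, which sends misfolded glycoproteins to degradation, rose by 0.65, DNAJB9 by 0.58 and SEL1L by 0.55, and DERL3 fell by 0.49 and the chaperone CALR by 0.32, while HSPA5, the main ER chaperone, stood at −0.12 (adjusted p = 0.16). Of 26 hypoxia-response and glycolysis genes 10 fell and 2 rose (46.2%), and with the offset 3 fell and 1 rose (15.4%). ALDOC fell by 0.39 (log2 fold change −0.26 with the offset) and VEGFA rose by 0.35 (0.41 with the offset).

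Of 21 p53 targets 2 rose and 4 fell (28.6% called), MDM2 by 0.27 higher and CDKN1A and FDXR by 0.21 and 0.49 lower. With the GC offset these 3 stood at 0.08, −0.06 and −0.29 (adjusted p = 0.48, 0.56 and 0.21), and the offset left none of the 6 calls. Among 20 regulators of plasma cells and myeloma 3 rose and 3 fell (6 of 20 called), and 1 rose with the offset (5.00%). SDC1, the plasma cell surface marker CD138, was at 3429, 3368 and 2992 CPM against 2690, 2776 and 2576 and fell by 0.28 (adjusted p = 0.0028), and TCF3 fell by 0.24 (adjusted p = 0.013). With the offset these were −0.12 (adjusted p = 0.14) and −0.04 (adjusted p = 0.71). IRF4, on which myeloma cells depend, rose by 0.24 (0.24 with the offset, adjusted p = 0.019), and MYC, an oncogene of many myelomas, did not pass the test (−0.01, adjusted p = 0.94). POU2AF1, a B-lineage coactivator, fell by 0.18 (adjusted p = 0.040, and 0.35 with the offset), and MCL1, PIM2, CCND1 and PRDM1 were not called. Of 28 G2/M genes 3 rose, among them CENPE by 0.70, and 4 fell (7 of 28 called), among them UBE2C by 0.56 and CKS2 by 0.48, and with the offset 1 rose and 3 fell. Without the offset, the share called in the remaining lists was near or below the 13.5% of all genes or rested on 3 genes. Of 28 G1/S genes 2 rose and 2 fell (1 and 1 with the offset), and of 30 proteasome subunits 3 fell (2 with the offset). Of 17 members of the BCL2 family and death receptors 1 rose and 2 fell (1 rose with the offset). Of 13 mitochondrially encoded transcripts 3 fell (23.1%, median −0.08), and 0 to 3 when single libraries were left out. With the offset 4 of them fell (30.8%, against 2.71% of all genes called lower, median −0.17). Of 23 splicing regulators 3 rose, and with the offset 1 fell. In the list of 20 immediate early genes 1 fell, and with the offset 1 rose, and in that of 13 NF-kB genes 1 rose, which was not called with the offset.

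The largest rises were of genes that were far lower in the DMSO libraries of 6 h than in nearly all other libraries. ENSG00000269339, an identifier without a name in the tables used, was at 0 in all 3 DMSO libraries and at 1499, 1598 and 1567 CPM with NCP22, at least 1510-fold higher against a floor of 3 counts per library. ITPRIPL2 (chromosome 16, 19113932 to 19121629), a gene related to the inositol trisphosphate receptor-interacting protein, was at 29.6, 7.41 and 48.7 CPM against 1178, 1055 and 1139 (log2 fold change 5.30, SE 0.21, adjusted p = 9.0e-15). PPIP5K2, an inositol pyrophosphate kinase (chromosome 5, 103120149 to 103212799), was at 147, 67.1 and 232 CPM against 2307, 2452 and 2862 (4.10, SE 0.21, adjusted p = 1.6e-12). DMSO replicate 2 was the lowest and replicate 3 the highest control in both named genes.

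Over the other 60 libraries of the series, on the scale of the whole library, ITPRIPL2 ranged from 28.9 to 9203 CPM with a median of 847. In 59 of these 60, ITPRIPL2, PPIP5K2, ENSG00000269339 and ARHGEF33, a putative guanine nucleotide exchange factor (log2 fold change 5.44), were each above every AMO1 DMSO library of 6 h. AMO1 cells kept in DMSO for 24 h had 1196, 1796 and 1141 CPM of ITPRIPL2, a range that overlaps the 1058 to 1174 CPM with NCP22 at 6 h on this scale. What set the low level of the 3 control libraries was not tested. Chosen after these values were seen, the genes of at least 5 CPM whose log2 CPM followed that of ITPRIPL2 over the other 60 libraries were PPIP5K2 (Pearson 0.963), ENSG00000269339 (0.923), ARHGEF33 (0.898), SLC1A1 (0.881), RAPH1 (0.788) and ZBTB7A (0.765). All of them were called higher (7.42% of all genes were), but ITPRIPL2 itself was picked for its rise in these libraries. PPIP5K2, ENSG00000269339 and ARHGEF33 were already among the largest rises, so their calls were known beforehand and are no further result. ENSG00000269339, ARHGEF33 and SLC1A1 had means of 0, 0.341 and 0.686 CPM with DMSO. They passed the filter on low counts through their NCP22 libraries, so a higher level with NCP22 was fixed by the filter. The call of SLC1A1 is thus no further result either. ITPRIPL2 shared 6 31-mers with PPIP5K2 and none with ARHGEF33, SLC1A1, RAPH1 and ZBTB7A. Shares of 31-mers found in any other gene were 74.9% in RAPH1 (most in ABI2), 23.9% in ITPRIPL2, 18.9% in ARHGEF33 and 5.18% in PPIP5K2. They were 0.0447% in ZBTB7A and 0% in SLC1A1. ENSG00000269339 was not part of that search.

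**Figure D3:**
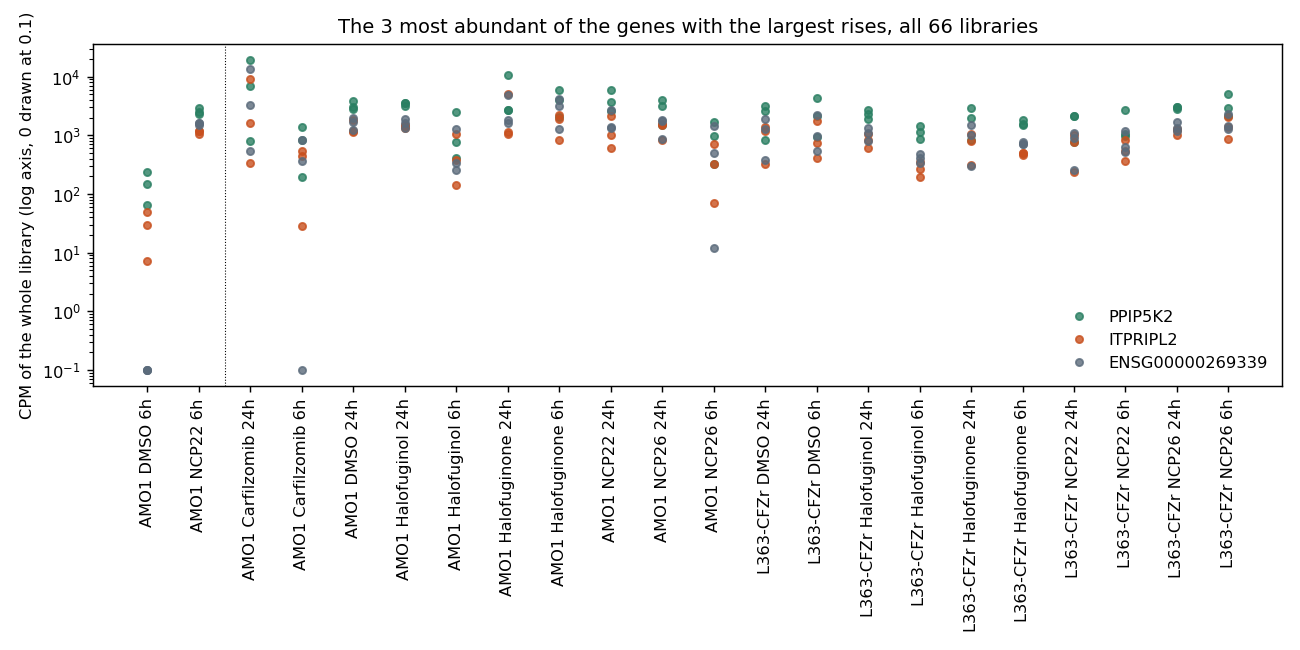
CPM of the whole library (log axis, 0 drawn at 0.1) of PPIP5K2, ITPRIPL2 and ENSG00000269339 in all 66 libraries by group, with the 2 compared groups left of the dotted line. The AMO1 DMSO libraries of 6 h lie below nearly all others, with ENSG00000269339 at 0, while AMO1 DMSO libraries of 24 h have 1141 to 1796 CPM of ITPRIPL2.

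The next largest rises were smaller and more even. BCAT1, which starts the breakdown of branched-chain amino acids, was at 21.6, 18.5 and 23.7 CPM against 63.1, 57.4 and 77.2 and rose by 1.63 (SE 0.13, adjusted p = 1.5e-08). RSBN1L, a nuclear protein gene, was at 83.9, 91.0 and 105 CPM against 286, 299 and 262 (1.60). ENSG00000205021 rose by 1.85 and the cold-sensing channel TRPM8 by 1.31, both at low levels, and the list of the 10 largest rises was completed by SLC7A11 and SLC6A9. Lack of overlap between groups was a condition for being among these 10, so it is no further result for them. Among the largest falls were several genes of low level. ADCK5, at 13.99, 9.44 and 9.95 CPM against 5.06, 6.05 and 4.76, fell by 1.07 (adjusted p = 0.0065), HGH1 by 0.85, the sulfotransferase gene CHST4 by 0.87, RTKN by 0.80, SPIN2B by 0.80, ZBTB32 by 0.77 and RASA4B by 0.77. With the GC offset ADCK5 (−0.86, adjusted p = 0.036) and ZBTB32 (−0.59, adjusted p = 0.0090) were called, and CHST4, HGH1, SPIN2B, RTKN and RASA4B were not. ENSG00000262621 fell by 2.80, from 6.04, 4.04 and 30.9 CPM to 0, 2.63 and 3.01, with DMSO replicate 3 far above the others, and ENSG00000250264 fell by 1.27 and ENSG00000185128 by 0.83.

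NCP22 was compared directly with the related inhibitor NCP26 and with halofuginol, an analogue of HFG, at the same 1 µM and 6 h, as 2 pairs with 3 libraries each. Against NCP26, 2668 of 10783 genes (24.7%) differed, 1313 higher (12.2%) and 1355 lower (12.6%) with NCP22. Against halofuginol 28 of 10778 (0.26%) differed, 13 higher and 15 lower. With p-values adjusted over both pairs together the counts were 2078 (1036 higher, 1042 lower) and 207 (99 higher, 108 lower). GC content correlated with the difference at 0.104 against NCP26 and at −0.21 against halofuginol, across genes. The NCP22 libraries are the same as above, so these comparisons are not independent of the one with DMSO. Without NCP22 replicate 1 or 2 the count against NCP26 was 1595 or 1532, and without NCP26 replicate 1 it was 3340. That NCP26 library had 15581 genes with a count, against 13577 and 13636 in NCP26 replicates 2 and 3. Its ribosomal share of counts was 14.91%, against 11.13% and 10.72%.

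With NCP26 the ISR list split. Of 39 members, 18 were lower and 6 higher with NCP22 than with NCP26 (median −0.21, against −0.01 for all genes). DDIT3 was at 317, 277 and 279 CPM with NCP26 and at 101, 96.2 and 90.7 with NCP22, a difference of −1.60 (95% interval −1.80 to −1.40, adjusted p = 4.4e-07). ATF3 was at 99.1, 117 and 128 CPM against 14.5, 21.3 and 20.5 (−2.61, −2.93 to −2.29). INHBE (−1.07), CHAC1 (−1.11), CEBPB (−0.90), TRIB3 (−0.63), SESN2 (−0.62) and SLC7A11 (−0.62) were lower as well. In DDIT3 and ATF3 the 2 compounds were several-fold apart with tight replicates.

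Other ISR genes did not differ detectably between NCP22 and NCP26. ASNS was at 264, 255 and 258 CPM with NCP26 and at 277, 269 and 270 with NCP22, a difference of 0.07 with a 95% interval of −0.10 to 0.24 (adjusted p = 0.55). PSAT1 differed by 0.05 (−0.13 to 0.24) and SLC6A9 by −0.02 (−0.31 to 0.26). EPRS1, which is not in the ISR list, differed by 0.00 (−0.19 to 0.20). CCPG1 and the mRNA of ATF4 were higher with NCP22, by 0.32 and 0.36.

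Several gene groups outside the ISR differed between the compounds, and others did not. All 14 tested histone genes were lower with NCP22 (median −2.15), H2BC11 at 151, 146 and 150 CPM with NCP26 against 13.4, 17.4 and 17.05 with NCP22 (−3.22, −3.47 to −2.97). Only 9 histone genes passed the filter on low counts against DMSO, so some of the 14 may have passed it through their level with NCP26. For such genes a lower level with NCP22 was fixed by the filter, which raises the count and may shift the median. Of 26 hypoxia-response and glycolysis genes 24 were higher with NCP22 (median 0.81). HILPDA, a lipid droplet protein, was at 4.85, 10.02 and 7.05 CPM with NCP26 against 74.4, 82.6 and 75.8 (3.37, 2.99 to 3.75), and PFKFB4, which drives glycolysis, was higher by 2.54. Of 21 p53 targets 14 were higher with NCP22 (median 0.44). CDKN1A, the p21 inhibitor of the cell cycle, was at 70.0, 72.4 and 70.9 CPM against 374, 381 and 351 (2.37, 2.18 to 2.56). The same direction was found for 16 of 28 G2/M genes, 13 of 28 G1/S genes (1 lower), 14 of 24 ER genes and 11 of 21 heat shock genes (1 lower). NCP22 was lower in 12 of 20 immediate early genes (2 higher) and 8 of 13 NF-kB genes (1 higher). Splicing regulators were mixed, with 8 of 23 higher and 8 lower. Fewer genes than the 24.7% of all genes differed among cytosolic ribosomal proteins (2 of 78), proteasome subunits (2 of 30), mitochondrially encoded transcripts (1 of 13) and respiratory chain subunits (13 of 69). All 13 respiratory chain subunits were higher with NCP22 (18.8%), against 12.2% of all genes called higher. Since NCP26 replicate 1 stood apart in its ribosomal share, few calls in these lists do not show equal levels. Of the 78 ribosomal protein genes, 63 had a positive difference (median 0.09). JAKMIP1 (2.21) and TNFRSF10D (2.16), a decoy death receptor, were among the 5 largest differences upward, and ENSG00000182217 (−2.90), ENSG00000196331 (−2.89) and the phosphatase gene DUSP8 (−2.75) among those downward. MYC (1.04), SDC1 (0.56) and HSPA8 (1.18) were higher with NCP22.

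Halofuginol was the nearer neighbour. Of 39 ISR genes 4 were higher with NCP22 (median 0.04). ASNS was at 206, 202 and 223 CPM with halofuginol against 266, 257 and 259 with NCP22 (0.31, 95% interval 0.20 to 0.42, adjusted p = 0.0055), and CCPG1 (0.49), TRIB3 (0.30) and PSAT1 (0.29) were the others. ATF4 differed by −0.07 (−0.17 to 0.04) and DDIT3 by 0.03 (−0.12 to 0.19), and neither passed the test. H2BC12 was higher by 0.41, and HSPA8 (−0.24) and HMGCS1 (−0.30) were lower with NCP22. Of 13 mitochondrially encoded transcripts 3 were lower with NCP22 (23.1%, against 0.26% of all genes called, median −0.18). The 5 largest differences upward were RSBN1L (0.66), ENSG00000006075 (0.60), PABPC1L (0.49), CCPG1 and KLF12 (0.45), and downward CTAG1B (−1.83), RPL28 (−0.31), HMGCS1, ALDOC (−0.30) and PABPN1 (−0.29). All 31-mers of CTAG1B occur in other genes. Without halofuginol replicate 2 the count of 28 was 4, and without replicate 1 it was 9.

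At 24 h and in the other line no gene passed the test. In AMO1 cells at 24 h 0 of 10781 genes (0%) were called by edgeR's quasi-likelihood test, with 638 at an unadjusted p under 0.05 and 3 called by DESeq2. Without NCP22 replicate 1 edgeR called 144. Of 39 ISR genes 31 had positive log2 fold changes and the median was 0.16. ASNS was at 116, 121 and 114 CPM with DMSO and at 132, 138 and 152 with NCP22 (0.26, 95% interval 0.10 to 0.43, adjusted p = 0.70). INHBE had the largest value of the list, with 35.4, 30.1 and 32.9 CPM against 59.0, 50.4 and 53.7 (0.73, adjusted p = 0.068). In both genes the groups did not overlap. At 24 h the sample numbers in the column names place the treated libraries in a different series of numbers from the DMSO libraries, so treatment and that series cannot be told apart. Pellets of 24 h were kept on ice and not frozen overnight as those of 6 h were, so handling and time cannot be told apart either.

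In L363-CFZr cells at 6 h, under the same dose, 0 of 10235 genes (0%) were called by edgeR, with 666 at an unadjusted p under 0.05 and 1 called by DESeq2. Of 38 ISR genes 19 had positive log2 fold changes, and the median was −0.00. ASNS was at 70.6, 69.4 and 82.2 CPM against 83.3, 88.8 and 78.9 (0.16, 95% interval −0.04 to 0.36), and TRIB3 at 70.0, 67.8 and 71.5 against 64.8, 57.7 and 62.6 (−0.18, −0.37 to 0.01). The groups overlapped in ASNS and not in TRIB3. The sample numbers in the column names place 1 of the NCP22 libraries in a different series of numbers from the other L363-CFZr libraries compared here. All of these are in other series than the AMO1 libraries of 6 h, so line and series cannot be told apart.

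The effect of NCP22, meaning the difference between NCP22 and DMSO libraries, varied between times and lines in a test of the difference. The limits given above for the 24 h libraries and for L363-CFZr hold here too, so these differences cannot be ascribed to NCP22 alone. Between 24 h and 6 h in AMO1 cells the effect differed in 296 of 11070 genes (2.67%). These included 10 of 39 ISR genes, all with a lower log2 fold change at 24 h. The difference was −0.72 for ASNS (adjusted p = 0.00035), −0.94 for PSAT1, −0.89 for CCPG1, −1.41 for SLC7A11 and 0.66 for HSPA8. The libraries behind a difference varied by gene. ASNS was at 131 to 132 CPM in the DMSO libraries of 6 h and 112 to 119 in those of 24 h, and the NCP22 libraries went from 258 to 267 CPM at 6 h to 130 to 150 at 24 h. In HSPA8 the NCP22 libraries were alike at both times, at 1054, 1039 and 1005 CPM at 6 h and 1025, 1035 and 1013 at 24 h, while the DMSO libraries stood at 1787, 1811 and 1663 at 6 h and at 1113, 1038 and 1143 at 24 h. Between the lines at 6 h the effect differed in 180 of 10953 genes (1.64%). These included 14 of 39 ISR genes, all with a lower log2 fold change in L363-CFZr. That can be a smaller rise or a fall: TRIB3 was negative in L363-CFZr, and ISR values there went down to −0.51. The difference was −0.85 for ASNS (adjusted p = 0.00019), −1.07 for TRIB3, −1.02 for PSAT1, −1.82 for SLC7A11 and −0.79 for DDIT3. LRRC63, among the 3 largest differences (adjusted p = 0.050), was at 0 in the AMO1 DMSO libraries and at 11.8, 12.98 and 4.51 CPM with NCP22. With the GC offset the counts over all genes were 45 and 121. Without AMO1 DMSO replicate 2 they were 41 and 40, and without DMSO replicate 3 they were 863 and 377. Leaving out any other library moved these counts by over 1.5 times too, apart from AMO1 NCP22 replicate 2 of 6 h and DMSO replicate 3 of 24 h for the times and L363-CFZr NCP22 replicate 2 for the lines.

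**Figure D4:**
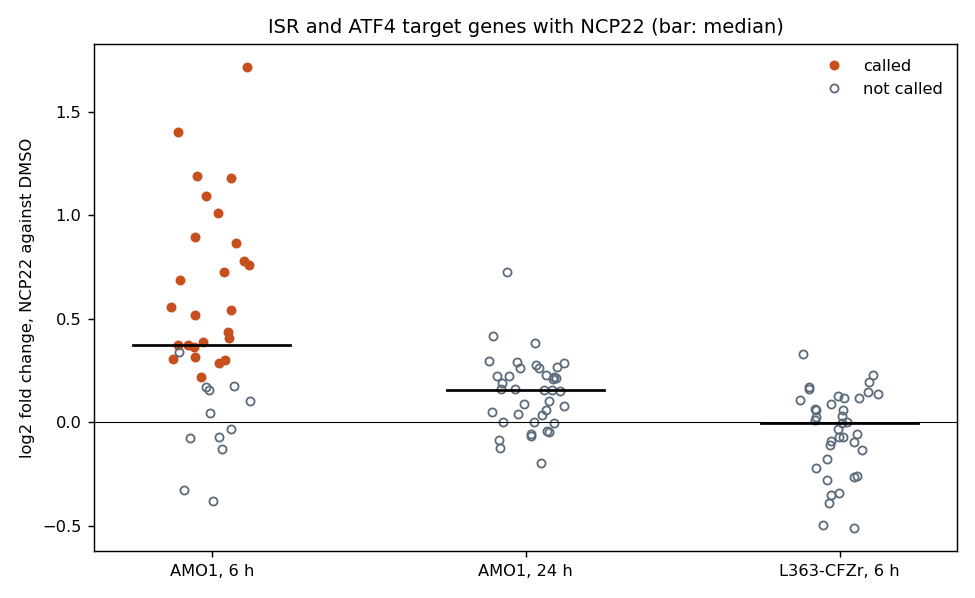
Log2 fold change of each tested ISR gene, NCP22 against DMSO, in AMO1 cells at 6 h and 24 h and in L363-CFZr cells at 6 h (points are genes, filled where called, bars are medians). The medians are 0.38, 0.16 and −0.00, and called genes appear in AMO1 cells at 6 h.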

How the data were processed

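Per the submitters' processing notes, the authors assigned reads with kallisto and named build hg19, whereas the methods of the study name a GRCh38 transcriptome. The authors deposited raw counts, as whole numbers for each gene, and how transcript estimates became gene counts is not given in their sources. Counts were filtered (filterByExpr, minimum count 10, minimum total 15), TMM scaled and tested with edgeR 4.0.16 (quasi-likelihood) in R 4.3.3, using only the groups compared, with Benjamini-Hochberg adjustment and a threshold of 0.05. Standard errors (SE) were obtained from the fold change and its F statistic. DESeq2 1.42.0 served as an alternative, and Python 3.11.15 for sequences and figures. GC content, length, symbols and positions were taken from GENCODE v44 (GRCh38, canonical transcripts), where 19299 of 20167 identifiers (95.7%) were found. Offsets were lowess trends (span 0.3) per library. Tests were tried on simulated data.

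Members and lists were chosen with earlier results of these data known. The genes named were the 10 largest changes per direction (adjusted p under 0.05, mean of at least 5 CPM, no overlap between groups), the 5 largest per direction with the GC offset and in each compound and line comparison, the 3 largest differences of effects, 20 fixed genes and up to 3 genes with the smallest p per list, of 22 lists. Further list members named beside these were chosen after their values were seen. Alternatives were DESeq2 size factors and Wald test, no filter, offsets, a replicate block, thinning to the smallest library, all AMO1 6 h groups in one fit and leaving out each library. Counts of list members under these settings were added after the data were seen. Some genes that the rule named are not reported here. The labels do not say whether samples that share a replicate number were paired, and the main fit took them as unpaired. Deviations of same-numbered libraries correlated at −0.002, 0.102 and 0.055, which cannot settle the question.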

Additional observations from a re-analysis of the deposited data

Results flagged for a closer look

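The difference between NCP22 and DMSO libraries varied between times or lines by the test of the interaction for the following results. The limits of number series and handling given above apply to them. With the GC offset the counts over all genes were 45 between times and 121 between lines. That offset ended the call of 2 named genes between times and of 3 between lines. The falls of SDC1 and TCF3 in AMO1 cells at 6 h, which enter both tests, were not called with it. Between 24 h and 6 h in AMO1 cells this held for 296 genes. Among the genes named by rule the differences were −5.62 for ARHGEF33, −5.40 for ITPRIPL2, −0.72 for ASNS, −0.57 for TRIB3, 0.41 for SDC1 and 0.32 for TCF3. Between L363-CFZr and AMO1 at 6 h it held for 180 genes, with −6.56 for ARHGEF33, −1.07 for TRIB3, −0.85 for ASNS, −0.79 for DDIT3, 0.39 for SDC1 and 0.31 for TCF3. For ARHGEF33 and ITPRIPL2 the differences rest on the low level of the 3 AMO1 DMSO libraries of 6 h, which enter both tests.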

How the results depend on the processing

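Against DMSO at 6 h, the 1443 calls became 898 with DESeq2's Wald test, 595 with the GC offset, 688 with the replicate block and GC offset and 573 with the GC and length offset, and 522 to 2291 when single libraries were left out. The other alternatives stayed within 1.5 times, among them the replicate block at 1821, which treats same-numbered libraries as paired. Against NCP26 single libraries left out gave 1532 to 3340 calls. Against halofuginol the 28 calls became 130 without a filter, 85 with the replicate block, 71 with block and GC offset, and 4 to 40 without single libraries. At 24 h in AMO1 cells the 0 calls became 3 with the Wald test, 98 without a filter, 50 with the block, 39 with block and GC offset, and 0 to 144 without single libraries. In L363-CFZr cells they became 1, 118, 4 and 4 in the same order, and 0 to 2. The 296 differences between times became 700 without a filter, 521 with the block, 45 with the GC offset, 62 with both, and 41 to 863 without single libraries. The 180 between lines became 494 without a filter, 444 with the block, 115 with block and GC offset, and 40 to 377. For named genes, the direction turned for JUNB (0.0063) and SRSF10 (−0.0542) with the GC and length offset, neither called there. The GC offset ended the call of 29 named genes and brought 3 past the threshold. Which setting is nearer to the cells was not tested. With 3 libraries a group and totals from 2913987 counts, small changes of low genes were not detectable.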
